A study of Homo sapiens with 6 samples.

Results

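The genes described here are 45 genes of ribosome biogenesis and of the nucleolus, chosen by symbol as the proteins of the small nucleolar ribonucleoproteins (snoRNPs), RNA polymerase I with its factors, and the factors that process and assemble pre-ribosomal RNA. All 45 were found among the 40173 genes of the deposited table, and all 45 were among the 15250 genes kept by the filter on low counts, with 149 to 10347 counts per gene and library. The libraries came from A549 cells, an epithelial cell line of human lung adenocarcinoma, harvested a day after transfection with an siRNA against the long noncoding RNA FAM83H-AS1 (silenced cells) or with a negative control (control cells). Each group had 3 libraries of total RNA, numbered 1 to 3 in the labels. The siRNA acts for a short time in one cell line, the labels give no separate cultures, and p-values therefore measure the spread between these libraries, which may be technical.

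Ribosomes are built in the nucleolus, where RNA polymerase I transcribes the precursor of the 18S, 5.8S and 28S ribosomal RNAs. Box C/D and box H/ACA snoRNPs modify and help to fold this precursor, and large sets of assembly factors then cleave it and load ribosomal proteins to give the small and the large subunit. Genes of this pathway are typically expressed at high levels in growing tumor cells, and many of them are known targets of the transcription factor MYC. Levels are given as CPM, the count scaled to 1e+06 counts of TMM-normalized library size. Log2 fold changes compare silenced with control cells, so that values below 0 stand for lower levels after silencing.

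The libraries held 9738291 to 17742643 counts. FAM83H-AS1 itself was at 14.5, 16.0 and 17.3 CPM in the control libraries and at 4.59, 4.44 and 5.57 CPM in the silenced libraries, 30.6% of the control mean (log2 fold change -1.70, standard error 0.148). Among the epithelial keratins, KRT7 was at 1413 ± 119 CPM in control and 954 ± 39.1 CPM in silenced cells and KRT18 at 1316 ± 75.3 and 977 ± 25.2 CPM (SD, n = 3 each), and both fell (log2 fold changes -0.57 and -0.43, adjusted p = 0.00116 and 0.00266 by edgeR). KRT8, at 1863 ± 199 and 1621 ± 39.9 CPM, had a log2 fold change of -0.20 that did not pass, although the groups did not overlap. CLDN4 was level at 39.7 ± 3.80 and 39.6 ± 4.38 CPM (log2 fold change 0.00068). EPCAM, KRT19 and CDH1 had means below 4 CPM in both groups. CDH1 was higher in every silenced library, but did not pass (log2 fold change 0.82, adjusted p = 0.112 by edgeR). Of the 7 epithelial markers, 5 had a log2 fold change below 0 and 2 above it. Of 10 markers of other cell types, PTPRC, CD3E, PECAM1, COL3A1, DCN and ALB had means below 1 CPM in both groups. CD68, a lysosomal protein of macrophages that other cells also express, was at 130 ± 9.31 CPM in control and 239 ± 14.7 CPM in silenced cells (SD, n = 3 each). Control replicate 3, the deepest library, stood apart in RNAs without a poly(A) tail, where RNA5-8SP6, a pseudogene of 5.8S ribosomal RNA, took 3.22% of the counts against 0.241% to 0.448% in the other libraries.

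After FAM83H-AS1 silencing, 10 of the 45 ribosome biogenesis genes fell and 35 did not pass the test. The 10 fell with an adjusted p under 0.05 by edgeR, while 0 of the 45 rose and 0 passed a fold change of 2. Among all tested genes, 17% passed the same threshold, 8.27% lower and 8.75% higher, and 2.14% passed both the threshold and the fold change of 2. Among the 7742 other mRNAs within the same range of mean level 23.1% passed, 881 lower and 904 higher, so that the share of the 45 genes that passed (22.2%) was near this background, with all 10 calls in the lower direction. At an unadjusted p under 0.05, 22 of the 45 were lower and 0 were higher. In either direction, 4894 of all 15250 tested genes and 3076 of the 7742 mRNAs of similar level passed this unadjusted threshold. DESeq2 gave 11 lower and 0 higher, with 0 past the fold change of 2. By DESeq2, 15.6% of all tested genes passed the adjusted threshold in either direction. The genes that fell were NOP16, RRN3, EBNA1BP2, NOP56, GAR1, NHP2, POLR1C, UBTF, WDR74 and PES1, with log2 fold changes from -0.59 to -0.29. Without control replicate 2 or without silenced replicate 1, 6 genes passed the threshold in place of 10, and the share of all tested genes that passed was then 11.4% and 7.87%. With scaling by library size only, GAR1 (adjusted p = 0.0554 by edgeR), WDR74 (0.0586) and PES1 (0.0522) lost the call, and so did GAR1 (0.063) and PES1 (0.0696) in counts thinned to the smallest library.

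The median log2 fold change of the 45 genes was -0.16, with 36 of them below 0 and 9 above it, compared with 49.9% of all tested genes above 0. Over the 12245 tested genes of the type mRNA the median was 0.00, and over the 7742 other mRNAs within the same range of mean level it was -0.00. The values of the 45 genes ranged from -0.59 to 0.19, and 42 of them lay within 0.5 of 0 on the log2 scale. For 23 genes the highest silenced library was below the lowest control library, and for 2 genes, NOLC1 and DCAF13, the order was the opposite, compared with 17.5% and 19.1% of all tested genes in the same order. Summed over the 45 genes, the level was between 6008 and 6220 CPM in the control libraries and between 5453 and 5680 CPM in the silenced libraries, so that the groups did not overlap.

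**Figure D1:**
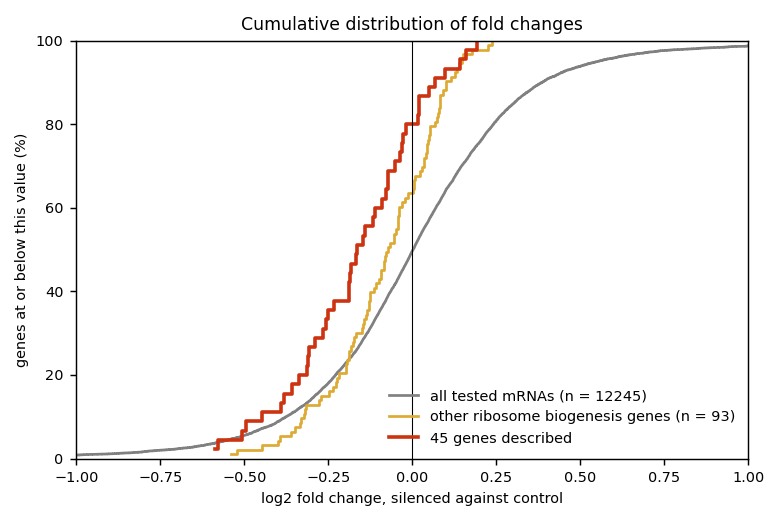
Cumulative share of genes (y axis, percent) at or below each log2 fold change of silenced against control cells (x axis) for the 45 genes, 93 other ribosome biogenesis genes and all 12245 tested mRNAs. The curve of the 45 genes lies left of the mRNA curve near 0, with 36 of 45 genes below 0, but it has no genes beyond -0.59 or 0.19.

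The number of genes that passed the test varied between roles of 3 to 13 genes each, and differences between roles were not tested. Among the RNA polymerase I genes 3 of 6 fell, among the H/ACA proteins 2 of 4, among the large subunit factors 4 of 11 and among the C/D proteins 1 of 3. The share that passed in either direction was 17% over all tested genes and 23.1% over the 7742 other mRNAs of similar level. By edgeR, 0 of the 13 small subunit factors, 0 of the 4 nucleolar phosphoproteins and 0 of the 4 other nucleolar proteins passed the adjusted threshold. At an unadjusted p under 0.05 these groups held 3, 2 and 2 lower genes and 0 higher genes, and DESeq2 gave 0 in each. Over all 15250 tested genes, 4894 passed the unadjusted threshold in either direction. The median log2 fold changes were -0.35 for the H/ACA proteins, -0.27 for the RNA polymerase I genes, -0.25 for the large subunit factors, -0.11 for the phosphoproteins, -0.09 for the C/D proteins, -0.08 for the other nucleolar proteins and -0.03 for the small subunit factors.

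RNA polymerase I transcribes the ribosomal DNA once its initiation factor RRN3, also known as TIF-IA, has bound the enzyme and the factor UBTF has shaped the gene. RRN3 was at 45.4, 51.2 and 50.4 CPM in the control libraries and at 33.0, 36.0 and 29.8 CPM in the silenced libraries. It fell by 0.58 on the log2 scale (standard error 0.093, adjusted p = 0.00258 by edgeR), and the groups did not overlap. UBTF, at 139, 142 and 144 CPM in control and 100, 118 and 114 CPM in silenced cells, fell by 0.36 (standard error 0.0786, adjusted p = 0.0116 by edgeR). Its adjusted p was 0.0663 without silenced replicate 1. POLR1C, a subunit shared by RNA polymerases I and III, was at 45.9, 56.0 and 47.5 CPM in the control and at 40.0, 38.4 and 36.3 CPM in the silenced libraries. It fell by 0.38 (standard error 0.0937, adjusted p = 0.0187 by edgeR), with an adjusted p of 0.067 without control replicate 2 and 0.061 without silenced replicate 3. The silenced libraries of both genes lay below all control libraries.

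POLR1A, the largest subunit of the enzyme, was at 153, 155 and 172 CPM in control and 140, 140 and 141 CPM in silenced cells. Its log2 fold change was -0.19 (95% interval -0.35 to -0.03, adjusted p = 0.0953 by edgeR), so that it did not pass the threshold although the groups did not overlap. The intervals of POLR1B (-0.22 to 0.12) and POLR1E (-0.36 to 0.03) included 0. Within each library, the ratio of RRN3 to POLR1A was 0.307 ± 0.0201 in control and 0.235 ± 0.0231 in silenced cells (SD, n = 3 each), a difference that does not depend on the scaling of libraries. RRN3 lies on the minus strand of chromosome 16, from 15060022 to 15094317 of GRCh38, and overlaps PDXDC1 on the plus strand, which was at 251 ± 3.14 and 273 ± 8.45 CPM (SD, n = 3 each). In the same annotation RRN3 has 2 annotated pseudogenes, with which it may share reads.

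Box C/D snoRNPs guide 2′-O-methylation of ribosomal RNA and are built around the methyltransferase fibrillarin (FBL) and the paralogous scaffold proteins NOP56 and NOP58. Of these partners only NOP56, encoded between 2652145 and 2658393 of chromosome 20 (GRCh38, plus strand), passed the threshold. NOP56 was at 182, 213 and 185 CPM in the control libraries and at 134, 132 and 145 CPM in the silenced libraries, and fell by 0.50 on the log2 scale (standard error 0.082, adjusted p = 0.00305 by edgeR). NOP58 was at 75.05, 88.9 and 83.4 CPM in control and 79.9, 86.1 and 84.8 CPM in silenced cells, a log2 fold change of 0.02 (95% interval -0.16 to 0.20) with overlapping groups. FBL, the highest of the 3 transcripts in CPM and also per kilobase of exon, was at 265, 276 and 244 CPM in control and 257, 229 and 252 CPM in silenced cells. Its log2 fold change was -0.09 (95% interval -0.26 to 0.08), and its groups overlapped.

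The ratio of NOP56 to NOP58 within a library was 2.42, 2.40 and 2.21 in the control cells and 1.68, 1.53 and 1.71 in the silenced cells. It differed by -0.52 on the log2 scale without overlap of the groups (exact permutation test, two-sided, p = 0.1, which is as low as 3 libraries per group allow). The ratio of NOP56 to FBL was 0.737 ± 0.0463 in control and 0.557 ± 0.0313 in silenced cells (SD, n = 3 each), again without overlap (two-sided exact permutation test, p = 0.1). These were 2 of 5 ratios, picked after the levels had been seen, and the Benjamini-Hochberg adjusted p was 0.125 for each of the 4 ratios that did not overlap.

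**Figure D2:**
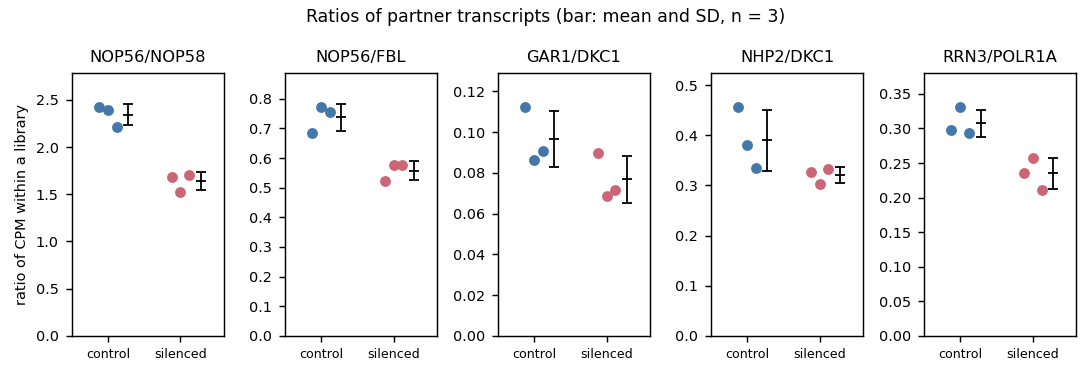
Ratio of the CPM of partner transcripts within each library (y axis) in 3 control and 3 silenced libraries, with the mean and SD beside the points. The silenced libraries lie below all control libraries for each ratio except GAR1 to DKC1, and for NHP2 to DKC1 the gap is narrow (0.333 against 0.334).

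Box H/ACA snoRNPs guide pseudouridylation and consist of the pseudouridine synthase dyskerin (DKC1) with NHP2, NOP10 and GAR1, proteins that are also part of telomerase. All of their transcripts had a log2 fold change below 0, and GAR1 and NHP2 passed the threshold. GAR1 was at 22.4, 18.1 and 18.7 CPM in control and 16.4, 13.8 and 13.2 CPM in silenced cells, and fell by 0.45 (standard error 0.127, adjusted p = 0.035 by edgeR). NHP2 was at 91.1, 79.7 and 68.9 CPM in the control and at 59.9, 60.7 and 61.5 CPM in the silenced libraries, and fell by 0.39 (standard error 0.0987, adjusted p = 0.0212 by edgeR). Neither call held with every library left out. The adjusted p of GAR1 was between 0.0518 and 0.105 without any 1 of control replicates 1 to 3 or silenced replicates 2 and 3, and that of NHP2 between 0.0505 and 0.0792 without control replicate 1 or 2 or silenced replicate 1 or 3. RMND5B, which overlaps NHP2 on the opposite strand, was also lower in every silenced library. Its log2 fold change of -0.20 did not pass (adjusted p = 0.13 by edgeR), and whether the 2 genes share reads was not tested.

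NOP10 was at 120, 123 and 118 CPM in control and at 97.5, 79.7 and 114 CPM in silenced cells, where its spread was wide (log2 fold change -0.31, adjusted p = 0.0823 by edgeR). DKC1, the enzyme, was at 199.96, 210 and 206 CPM in control and 183, 200.1 and 185 CPM in silenced cells, and its interval reached from -0.27 to 0.03 with overlapping groups. The ratio of NHP2 to DKC1 was 0.390 ± 0.0612 in control and 0.321 ± 0.016 in silenced cells (SD, n = 3 each). The ratio of GAR1 to DKC1 was 0.0964 ± 0.0137 and 0.0767 ± 0.0113, and its groups overlapped (two-sided exact permutation test, p = 0.2).

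Among the large subunit factors, NOP16 and EBNA1BP2 changed most. NOP16, a nucleolar protein of the early large subunit precursor, was at 75.9, 61.8 and 64.1 CPM in control and 46.0, 41.6 and 46.3 CPM in silenced cells, 66.3% of the control mean. It fell by 0.59 on the log2 scale (standard error 0.0935, adjusted p = 0.00245 by edgeR), the largest change among the 45 genes. EBNA1BP2, which assists ribosomal RNA processing and was named for its binding to a viral protein, was at 226, 228 and 215 CPM in control and 154, 145 and 172 CPM in silenced cells. It fell by 0.51 (standard error 0.0789, adjusted p = 0.0022 by edgeR). On GRCh38, NOP16 spans 176383938 to 176388975 of chromosome 5 and EBNA1BP2 43164175 to 43270936 of chromosome 1, both on the minus strand. HIGD2A, which overlaps NOP16 on the opposite strand of chromosome 5, was at 41.4 ± 8.35 CPM in control and 45.6 ± 2.06 CPM in silenced cells (SD, n = 3 each).

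PES1 and WDR12 form the PeBoW complex with BOP1, which is needed to mature the 28S and 5.8S ribosomal RNAs. PES1 was at 143, 128 and 138 CPM in control and 106, 106 and 122 CPM in silenced cells, and fell by 0.29 (standard error 0.0826, adjusted p = 0.0358 by edgeR). Its adjusted p was between 0.0778 and 0.144 without control replicate 1 or 3 or silenced replicate 1 or 2. WDR12 was at 27.7, 28.1 and 31.0 CPM in control and at 19.0, 24.8 and 26.0 CPM in silenced cells, a log2 fold change of -0.31 that did not pass (95% interval -0.58 to -0.05, adjusted p = 0.1 by edgeR). BOP1, from the list of other pathway genes, was at 43.8 ± 8.60 CPM in control and 33.2 ± 2.57 CPM in silenced cells (SD, n = 3 each), with a log2 fold change of -0.39 and an adjusted p of 0.0562 by edgeR. In all of these genes the silenced libraries lay below the control libraries. TCN2, which overlaps PES1 on the opposite strand, rose by 0.61 on the log2 scale (adjusted p = 0.0109 by edgeR).

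WDR74, which acts in remodeling of the large subunit precursor, was at 49.97, 57.4 and 50.3 CPM in control and 41.7, 41.5 and 43.9 CPM in silenced cells, and fell by 0.31 (standard error 0.083, adjusted p = 0.028 by edgeR). The adjusted p was 0.0946 without control replicate 2, 0.0985 without silenced replicate 1 and 0.0634 without silenced replicate 2. The small nuclear RNA gene RNU2-2P lies within WDR74 on the same strand and was at 134 ± 168 CPM in control and 23.5 ± 15.9 CPM in silenced cells (SD, n = 3 each). Without control replicate 3, which held most of the RNU2-2P counts, the adjusted p of WDR74 was 0.0434 by edgeR. In the other control libraries RNU2-2P was at 30.0 and 43.1 CPM, and in the silenced libraries at 18.1, 11.1 and 41.4 CPM. Whether WDR74 and RNU2-2P share reads was not tested. NOP2, a methyltransferase of 28S ribosomal RNA with the highest CPM of the large subunit factors when length is not taken into account, was at 250.03, 247 and 225 CPM in control and 215, 222 and 200 CPM in silenced cells (log2 fold change -0.18, adjusted p = 0.113 by edgeR). PPAN, which shares its locus with the read-through gene PPAN-P2RY11, had an interval from -0.43 to -0.03, and RRS1, GNL2, NIP7 and MRTO4 had intervals that included 0.

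**Figure D3:**
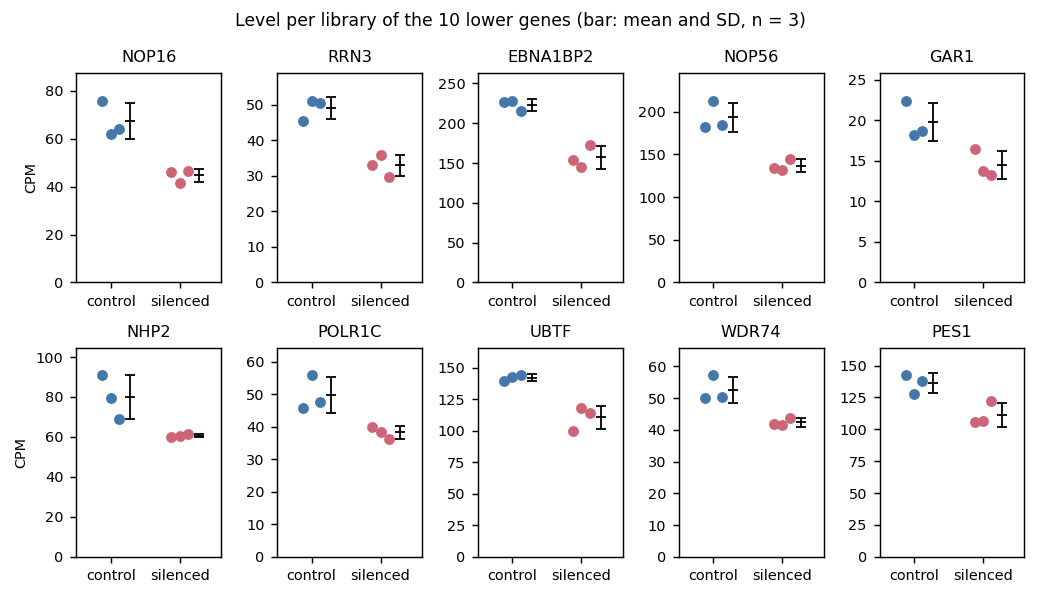
Level in CPM (y axis, from 0) of the 10 genes that fell, in 3 control and 3 silenced libraries, with the mean and SD beside the points. In each panel the 3 silenced libraries lie below the 3 control libraries, from NOP16 with 66.3% of the control mean to PES1 with 81.8%.

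The small subunit factors include UTP20, HEATR1, WDR43, WDR75, IMP3, IMP4, NOP14, RRP9 and DCAF13 of the small subunit processome, and RRP12, BYSL, NOB1 and TSR1, which act on later precursors. HEATR1, with the highest CPM of these genes when length is not taken into account, was at 190, 212 and 207 CPM in control and 178, 221 and 181 CPM in silenced cells (log2 fold change -0.07, 95% interval -0.27 to 0.13). Of the 13 genes, 9 had a log2 fold change below 0 and 11 lay within 0.2 of 0. The exceptions were NOB1, the nuclease that cuts the 3′ end of the 18S ribosomal RNA, with -0.27 (adjusted p = 0.0997 by edgeR), and IMP4, a protein of the U3 snoRNP, with -0.26 (adjusted p = 0.0651 by edgeR). NOB1 was at 188, 157 and 139 CPM in control and 138, 127 and 136 CPM in silenced cells, and passed without control replicate 3 (adjusted p = 0.0282). IMP4 passed without silenced replicate 2 (adjusted p = 0.0423).

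None of the nucleolar phosphoproteins and chaperones passed the threshold. Nucleolin (NCL), which binds pre-ribosomal RNA, was at 584, 644 and 612 CPM in control and 555, 609 and 583 CPM in silenced cells, and its interval reached from -0.23 to 0.08. Nucleophosmin (NPM1), a histone and ribosome chaperone, was at 430.0, 460.4 and 439 CPM in control and 369, 421 and 377 CPM in silenced cells (log2 fold change -0.19, adjusted p = 0.1 by edgeR), and passed without silenced replicate 2 (adjusted p = 0.0491). GENCODE annotates 45 pseudogenes of NPM1 that may share its reads. NOLC1, a phosphoprotein that binds snoRNPs, was higher in every silenced library (466, 499 and 468 CPM against 408, 449 and 443 CPM) with a log2 fold change of 0.14 that did not pass (adjusted p = 0.183 by edgeR). Its relative TCOF1, or treacle, which acts with RNA polymerase I, was at 335, 312 and 309 CPM in control and 292, 286 and 285 CPM in silenced cells (log2 fold change -0.15, adjusted p = 0.15 by edgeR).

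NOC2L, a nucleolar repressor of histone acetylation, was at 298, 291 and 272 CPM in control and 248, 258 and 251 CPM in silenced cells (log2 fold change -0.18, adjusted p = 0.0812 by edgeR). LYAR had a log2 fold change of -0.34 and an adjusted p of 0.0502 by edgeR, just above the threshold, and reached 0.0282 without control replicate 3. GNL3, or nucleostemin, and RRP1B had intervals of -0.14 to 0.18 and -0.06 to 0.26.

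Levels of different genes were compared per kilobase of exon, using the joined exons of all transcripts in GENCODE 29. In the control cells NOP10 was highest with 217 ± 4.23 CPM per kb, followed by FBL with 121 ± 7.50, NPM1 with 116 ± 4.06, NOLC1 with 109 ± 5.58 and NCL with 88.5 ± 4.33 CPM per kb (SD, n = 3 each). FBL and NPM1 differed by less than their spread. WDR12 was lowest with 3.18 ± 0.203 CPM per kb, next to DCAF13 with 3.46 ± 0.176 CPM per kb. Of the 44 neighbouring pairs in this order, 28 differed by less than the larger of both SDs.

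Promoters and 3′-UTRs were each searched for a short sequence. The choice of genes by symbol used neither sequence, but the 3′-UTR word came from these same libraries, as stated below. The E-box CACGTG, which MYC binds and which reads the same on both strands, was looked for from 250 bases before to 50 bases after the gene start in RefSeq sequences of GRCh38.p14, found for 37 of the 45 genes. It was present in 16 of these 37 (43.2%), compared with 12.8% of 9233 tested mRNAs and 8.77% of all 27305 gene symbols with a promoter in that source. Of the genes that fell, 3 of 10 held it (EBNA1BP2, GAR1 and PES1), and of the others 13 of 27. In EBNA1BP2 it lay at base -237 from 1 annotated start and at base 43 from another. The median log2 fold change was -0.15 for genes with an E-box and -0.19 for those without one. A match to these letters is a description of the sequence and not a binding site. The windows of the 3 genes that fell and of 3 genes that did not pass the threshold (FBL, GNL3 and WDR43) are shown to compare the surroundings of the motif, which is in capitals, on the strand of the gene.
EBNA1BP2, chr1:43172792-43172817, minus strand: tattgttggcCACGTGggatcgaaga
GAR1, chr4:109815783-109815808, plus strand: gccagaggggCACGTGgcgccggtga
PES1, chr22:30591882-30591907, minus strand: cttggcagggCACGTGcgggaggaag
FBL, chr19:39846358-39846383, minus strand: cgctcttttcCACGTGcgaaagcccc
GNL3, chr3:52686028-52686053, plus strand: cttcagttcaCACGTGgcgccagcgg
WDR43, chr2:28894660-28894685, plus strand: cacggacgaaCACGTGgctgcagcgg

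MYC mRNA was at 290, 253 and 265 CPM in the control libraries and at 241, 208 and 210 CPM in the silenced libraries, and fell by 0.29 on the log2 scale (standard error 0.0826, adjusted p = 0.0334 by edgeR). This gene was added after the data had been seen, and its adjusted p was between 0.0565 and 0.098 without control replicate 1 or 3 or silenced replicate 2 or 3, and 0.0589 with scaling by library size only. By qRT-PCR and western blot, the study itself found no significant change of MYC after FAM83H-AS1 silencing. Whether MYC had a part in the levels of the genes above was not tested.

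The sequence CCAATAA had been picked earlier from these same libraries as a word of 3′-UTRs with lower levels after silencing, so that it gives no independent support here. It occurs in an annotated 3′-UTR of 4 of the 45 genes (8.89%) and of 12.7% of 11539 tested mRNAs. The 4 genes were NOP56, RRN3 and POLR1C, which fell, and WDR12, which did not pass the threshold. The other 7 genes that fell lack it, and their median log2 fold change was -0.39. Among the 41 genes without the sequence the median was -0.14. The sites are shown because 3 of the 10 lower genes hold one, with the word in capitals, on the strand of the mRNA and with GRCh38 coordinates.
NOP56, chr20:2658361-2658387, plus strand: gccgtgttccCCAATAAaaacaaattc
RRN3, chr16:15061101-15061127, minus strand: acttcagagaCCAATAAaagcccatag
RRN3, chr16:15060039-15060065, minus strand: cgttcttataCCAATAAaaggtacctc
POLR1C, chr6:43561853-43561879, plus strand: cttttgtgctCCAATAAtacatccctt
WDR12, chr2:202876550-202876576, minus strand: aagggatattCCAATAAtatctttttt
In NOP56 and at both sites of RRN3 the word is followed by an A and so contains AATAAA, the usual polyadenylation signal. The site of NOP56 starts at base 77 of a 3′-UTR of 99 bases and the second site of RRN3 at base 1689 of 1722.

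A further 93 genes of the pathway that are not among the 45 were tested, such as RNA helicases, processome proteins and assembly factors of snoRNPs. Of these, 9 fell, 0 rose and 0 passed a fold change of 2 by edgeR, and DESeq2 also gave 0 higher. The share that fell was 9.68%, near the 8.27% of all tested genes that passed as lower (17% in either direction). At an unadjusted p under 0.05, 23 were lower and 1 was higher, 24 of the 93 in either direction. The same threshold was passed by 4894 of all 15250 tested genes and by 3076 of the 7742 mRNAs in the level range of the 45 genes. The median log2 fold change of the 93 genes was -0.07. The largest changes among those that passed were those of the helicase DDX47 (-0.54), PELP1 (-0.52), which acts in large subunit maturation, TBL3 (-0.45), a processome protein, the H/ACA assembly factor SHQ1 (-0.40) and RUVBL1 (-0.36), an ATPase of snoRNP assembly. DDX47 was at 109 ± 1.26 CPM in control and 75 ± 7.90 CPM in silenced cells, and PELP1 at 171 ± 5.91 and 119 ± 0.769 CPM (SD, n = 3 each). The calls of TBL3, SHQ1 and RUVBL1 were each lost without at least 1 library, with adjusted p up to 0.0533 (without control replicate 1 or silenced replicate 2), 0.112 (without control replicate 1 or 2 or silenced replicate 1 or 3) and 0.0675 (without silenced replicate 1). SHQ1 also lost its call with DESeq2 and with scaling by library size only. Over the list, 3 genes passed without silenced replicate 1, and 5 without control replicate 2 or silenced replicate 3.

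Noncoding RNAs of the pathway followed control replicate 3. SNORD3A, the U3 RNA of the processome, was at 900, 1183 and 1890 CPM in control and 898, 913 and 1256 CPM in silenced cells. RMRP, the RNA of a nuclease that cuts pre-ribosomal RNA, was at 90.1, 119 and 365 CPM in control and 97.7, 75.4 and 107 CPM in silenced cells, and SNORA73A at 3.50, 3.89 and 12.8 CPM and 1.95, 3.24 and 4.01 CPM. None of these RNAs passed the threshold by edgeR with all libraries or by DESeq2 (unadjusted p = 0.118, 0.0243 and 0.0282 by edgeR in the same order), and all have overlapping groups. These calls depended on the setting. With the replicate number as a block SNORD3A (adjusted p = 0.0356 by edgeR) and SNORA73A (0.0243) passed, among all genes with at least 1 count all of them passed, and RMRP passed without control replicate 1 (adjusted p = 0.0291). Without control replicate 3 the log2 fold changes were -0.03 for SNORD3A, -0.17 for RMRP and -0.25 for SNORA73A, with adjusted p from 0.498 to 0.923. SNORD13, with 9, 15 and 124 counts in control and 4, 0 and 12 in silenced cells, passed by edgeR (adjusted p = 0.045) but not by DESeq2 (adjusted p = 0.179), nor without silenced replicate 1 or 2 (adjusted p = 0.128 and 0.107). The filter on counts kept it in only 9 of the 13 alternative settings, and it passed in 6 of these. Most of its control counts came from control replicate 3. The share of RNA5-8SP6, given above, was highest in the same control library, and its part in these values was not tested.

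Several of the 45 genes carry snoRNAs in their introns, and 4 of the 17 such snoRNAs examined had enough counts to be tested. SNORD57, in an intron of NOP56, had 10, 23 and 27 counts in control and 8, 4 and 9 in silenced cells, and fell by 1.34 on the log2 scale (standard error 0.39, adjusted p = 0.0376 by edgeR). This call was lost with DESeq2 (adjusted p = 0.111) and, with adjusted p from 0.0773 to 0.123, without any 1 library other than control replicate 1. SNORD86 and SNORD110, also in NOP56, had log2 fold changes of -0.91 and -0.58 with adjusted p of 0.0893 and 0.311 by edgeR. SNORD69, in GNL3, had a log2 fold change of -0.56 that was 1.03 without control replicate 3. At such counts, reads of a snoRNA and of the intron around it cannot be told apart.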

How the data were processed

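RNA-Seq libraries of total RNA from A549 cells were made with an Ion Proton kit. Per the labels and the methods of the study, the authors mapped the reads with MapSplice and deposited whole counts per gene without normalization, and the labels name the build GRCh37. The annotation, the strand setting and the treatment of reads with several matches are not given in the sources used here, so that genes with pseudogenes or with a gene on the opposite strand (24 of the 45 overlap one in GENCODE 29) may share reads. The deposited columns were matched to samples by their group and replicate number.

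The 45 genes and all lists were chosen with earlier results of these data known. Counts were filtered with filterByExpr, normalized with TMM and tested over 15250 genes with the quasi-likelihood F test of edgeR 4.0.16 in R 4.3.3, with Benjamini-Hochberg adjustment over all of them. Called genes also had a fold change over 2, the threshold in the study's methods. Standard errors were taken as the size of the log2 fold change over the root of F, and intervals (95%) use the degrees of freedom of that test. The common dispersion was 0.0108. Counts were simulated with 200 genes changed by 1.5 on the log2 scale. Of these, edgeR recovered 200 with 1 false call and DESeq2 1.42.0 recovered 200 with 0. Recovery of changes as small as those of the 45 genes, with log2 fold changes from -0.59 to 0.19, was not tested. Libraries of 1 group were more unlike than counting noise alone gives (chi-square per degree of freedom from 4.18 to 29.2).

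Described with all libraries were the genes with an adjusted p under 0.05 and the gene of each role with the highest mean CPM. From the other pathway genes, the 5 with the largest change in each direction past the threshold were named. Other genes given with values were picked after these had been seen. Ratios were compared with exact permutation tests in Python 3.11.15 and scipy 1.17.1. Locations, exons and 3′-UTRs came from GENCODE 29 on GRCh38 and promoters from RefSeq on GRCh38.p14, joined by symbol, since no coordinates of the files' own build were used. Alternatives were DESeq2, size factors by RLE, scaling by library size only, genes with any count (at least 1), genes with 10 or more counts in each library, a block for the replicate number, thinning to the smallest library, an adjusted p under 0.01 and leaving out each library.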

Additional observations from a re-analysis of the deposited data

How the results depend on the processing

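The median of the 45 genes stayed below 0 under every alternative that was run, between -0.18 and -0.14 with 1 library left out and at -0.13 with library size only. In all of these alternatives 0 of the 45 genes passed the threshold as higher and 0 passed the fold change of 2. The number that fell was 6 to 10 with 1 library left out, 4 at an adjusted p under 0.01, 7 with library size only, 15 among all genes with at least 1 count and 17 with the replicate number as a block. For the 93 other genes of the pathway it was 3 to 9 with 1 library left out, 2 at an adjusted p under 0.01, 14 among all genes with at least 1 count and 15 with the replicate block. The block moved the share of all tested genes past the threshold from 17% to 22.6% as well. This share was 16.7% with library size only and 13.3% among all genes with at least 1 count. It was 7.87% to 12.7% with 1 library left out, and was not computed at an adjusted p under 0.01. Same-numbered libraries did not deviate together throughout (r = 0.36, 0.263 and -0.105 for replicates 1, 2 and 3, across genes), so that the numbers were not taken as pairs. Of the 10 genes that fell, NOP56, RRN3, NOP16 and EBNA1BP2 passed in all 13 alternatives run for single genes, the other 6 lost the call in at least 1, and none changed direction. Of the other 35 genes, 7 reached the threshold in at least 1 alternative. With library size only, the log2 fold changes of RRP12 (0.0081), BYSL (0.0038), IMP3 (0.018) and NIP7 (0.00072) were above 0, and 32 of the 45 genes were below it. With 1 library left out, those of NOP58 (-0.044 to 0.074), WDR75 (-0.051 to 0.080), RRP12 (-0.068 to 0.0035), IMP3 (-0.077 to 0.058), NIP7 (-0.082 to 0.022), GNL3 (-0.0037 to 0.058) and SNORD69 (-1.37 to 1.03) took both signs. The causes of these shifts were not tested. With 3 libraries per group, differences as small as those of most genes here were within their intervals and could not be resolved.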
